A study of Mus musculus with 12 samples.

Results

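The proteasome genes of mouse stromal vascular cells were followed in both comparisons of a study of the microRNA miR-26, as every row whose gene symbol reads Psm, a letter from a to g and a number. The rule found 44 genes in each deposited table, of 19262 genes listed for TKO against WT and 16785 genes listed for Dox against CTL. They are 8 alpha and 6 beta subunit genes of the 20S core, 3 immunoproteasome subunit genes, 5 ATPase and 11 non-ATPase subunit genes of the 19S regulator, 7 assembly factor genes and 4 genes of other activators and an inhibitor. Psmb5, Psmb11, Psmc6 and Psme1, which belong to the same families, were not analysed here. RNA was sequenced in 12 libraries, 4 groups of 3, all of cultured primary cells of the stromal vascular fraction of white fat from C57BL/6 mice aged 6 weeks. TKO cells were null for the 3 miR-26 genes (miR-26a-1-/-, miR-26b-/- and miR-26a-2-/-) and WT cells were wild type, both harvested at confluency. Dox cells carried M2rtTA and the eGFP.miR-26a transgene and had received doxycycline, 1 mg/ml as the labels give it, for 4 days, and CTL cells carried the same transgenes and received none. Doxycycline was given to Dox cells alone and all CTL cells carry the transgenes, so the drug and the induced microRNA cannot be told apart. The promoter that drives M2rtTA is not given in the labels, nor is whether libraries of a group came from separate animals, so the p-values measure the spread between these libraries, which may be technical.

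The proteasome is the main protease of the cytosol and nucleus and degrades proteins tagged with ubiquitin. Its 20S core is a barrel of stacked rings, with alpha subunits forming the gated outer rings and beta subunits the inner rings, where Psmb5, Psmb6 and Psmb7 carry the catalytic sites. The 19S regulator binds the end of the barrel, unfolds substrates with a ring of ATPases (Psmc) and recognises and removes ubiquitin with non-ATPase subunits (Psmd). Dedicated chaperones, among them the Psmg proteins, put the particle together, and immune stimuli exchange the catalytic subunits for Psmb8, Psmb9 and Psmb10.

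Depth ran between 71455171 and 83461531 recovered reads per TKO library, 54978109 and 61307152 per WT library, 19301969 and 25785439 per Dox library, and 20182665 and 24122542 per CTL library. The markers fixed for adipocyte progenitors, which include Pdgfra, Pdgfrb, Cd34 and Thy1, were listed in full (7 of 7 genes). Their summed signal lay between 2260.1 and 2357 in TKO libraries and between 2918 and 3035 in WT libraries. Of the 7 genes 2 fell and 0 rose at an adjusted p under 0.05, where 22.7% and 23.2% of all tested genes did. In the other table the same sum lay between 2561 and 2925 in Dox libraries and between 2778 and 2983 in CTL libraries. There 0 of the 7 genes passed. With library pairs of the same number as a block 2 were called, where 2.1% of all tested genes were. The 14 macrophage and leukocyte markers, all listed, summed to 65.2, 326 and 57.5 in TKO libraries and 55.1, 43.2 and 73.6 in WT libraries, so that TKO replicate 2 stood apart. Of the 12 that were tested, 0 passed. Summed endothelial markers (5 of 5 listed) lay between 56.6 and 128 in TKO libraries and between 77.6 and 99.9 in WT libraries. The adipocyte markers (4 of 5 listed, Lep not) summed to 115, 112 and 28.9 in TKO libraries and 28.1, 29.7 and 30.9 in WT libraries, so that TKO replicates 1 and 2 stood apart, and 0 of the 3 tested passed, with a median log2 fold change of 1.47. The 4 epithelial markers ran between 0.457 and 76.6 in TKO libraries and between 8.15 and 35.4 in WT libraries, and 0 passed. What part these cells have in the values of the proteasome genes was not tested. Signal is the authors' scaled read count per gene, and in bulk RNA fewer cells of a type and less RNA per cell cannot be told apart. The level of mature miR-26 was not analysed here.

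Both mature miR-26 sequences share the seed (bases 2 to 8, in capitals) through which a microRNA pairs with messenger RNAs. They are shown because the TKO cells lack them, as given by RefSeq for GRCm38.p6. The sequence of miR-26a-5p comes from chr9:119031811-119031832 (plus strand) and chr10:126995543-126995564 (plus strand), and that of miR-26b-5p from chr1:74394324-74394344 (plus strand).
mmu-miR-26a-5p: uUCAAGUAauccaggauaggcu
mmu-miR-26b-5p: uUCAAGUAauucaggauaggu

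A site counted as a match where it paired with bases 2 to 8, or with bases 2 to 7 and held an A facing base 1. Such a match was found in the 3' UTR of 3 of the 42 tested proteasome genes (7.14%), namely Psma2, Psma3 and Psmd5. The same kind of match stood in 21.8% of all tested genes with a 3' UTR. All 3 matches pair with bases 2 to 7 and face an A at base 1, and 0 of the genes held the 8-base match. The median 3' UTR was 282 bases long over the proteasome genes and 1200.0 bases over all tested genes. The matched sites, with the matching bases in capitals, are shown from GENCODE vM21 transcripts on GRCm38, at chr13:14626518-14626547 (plus strand) for Psma2, chr12:70995788-70995817 (plus strand) for Psma3 and chr2:34849944-34849973 (minus strand) for Psmd5.
Psma2 site: agtgatgtatcACTTGAAcccagagcttgc
Psma3 site: tccagtacagcACTTGAAacaaaaacttta
Psmd5 site: ccactgacttgACTTGAAgcctcccaccac
The 3 genes rose in TKO cells, with log2 fold changes of 0.65, 0.49 and 0.33, and a match in the letters is a description of the sequence only.

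Proteasome messenger RNA was higher in TKO than in WT cells for most of these genes. Of 42 tested genes, 29 rose, 5 fell and 8 did not pass, where passing means an adjusted p under 0.05 (limma on log2 of signal plus 1, adjusted by Benjamini and Hochberg over 12649 genes). Among all tested genes 23.2% rose and 22.7% fell, 45.8% in all, so the background of change was itself high. The median log2 fold change was 0.31 over the proteasome genes and -0.001 over all tested genes. The highest estimates were those of Psmg3, an assembly chaperone (1.47), Psmb4, a structural beta subunit (1.44), and Psmg4, another assembly chaperone (1.16). With edgeR Psmg4 (1.61) stood above Psmb4 (1.48), and so it did by the ratio of means. The largest fall was that of Psme3, an activator subunit (-0.47). The signal of all 44 genes made up between 0.388% and 0.432% of the table's signal in TKO libraries and between 0.306% and 0.312% in WT libraries. All 3 TKO libraries lay above all 3 WT libraries for 33 genes and below them for 5, against 29.4% of all tested genes in each direction. Of the 42 genes tested here, 20 were higher and 2 lower by the authors' deposited values at a false discovery rate under 0.05. Psmb9, which was not tested here, was also higher there (false discovery rate 0.0457). Of all 19262 genes listed, 4775 passed that rate in either direction.

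Scaling by the recovered library sizes alone moved the median of all genes by 0.11 on the log2 scale. On that scale 30.2% of all genes rose and 15.1% fell, and of the proteasome genes 34 rose and 2 fell, with a median of 0.43, which is 0.32 above that of all genes. Without WT replicate 2 the proteasome counts were 21 higher and 3 lower (16.4% and 14.7% of all genes), and without WT replicate 3 they were 22 higher and 3 lower (19.3% and 17.5%). Without TKO replicate 2, the library with the high macrophage markers, 26 rose and 5 fell, where 22.3% and 21.7% of all genes did, and without TKO replicate 1, the library with the highest adipocyte marker sum, 26 rose and 4 fell (22.9% and 22.3% of all genes). Of the 29 genes that rose, 19 passed in every one of the 18 fits that tested them, and of the 5 that fell, Psmc1 and Psme3 did.

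**Figure D1:**
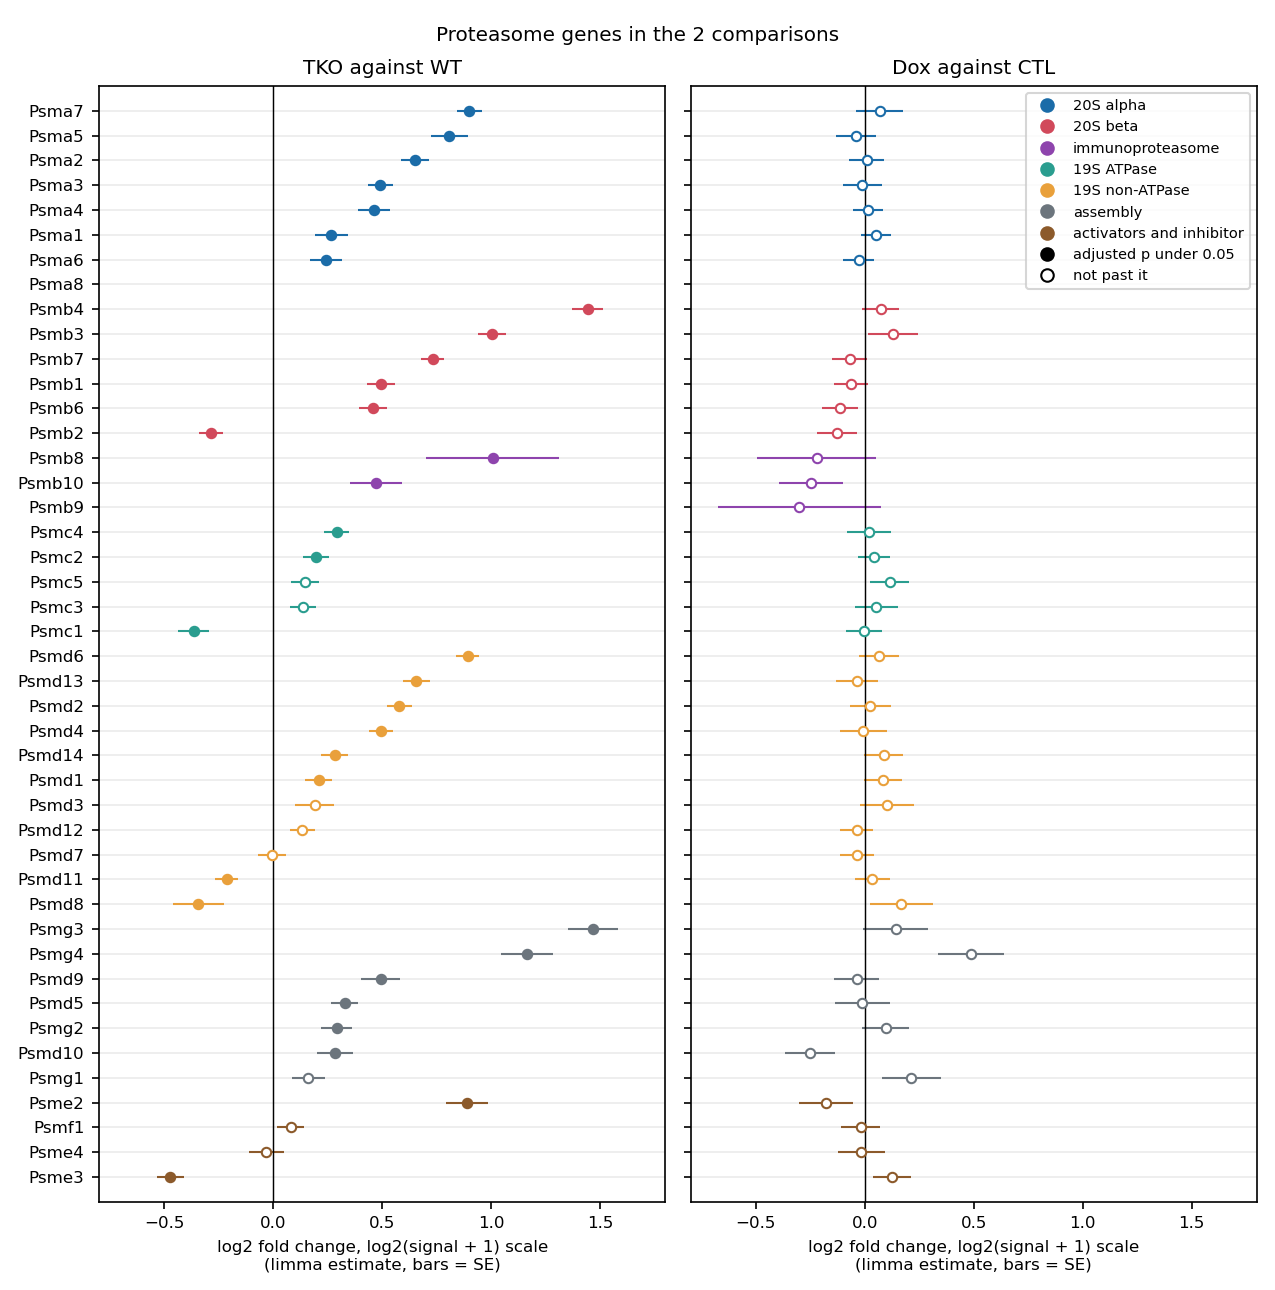
Log2 fold change (limma estimate with SE) of each proteasome gene on the horizontal axis, for TKO against WT on the left and Dox against CTL on the right, coloured by role, with filled points for an adjusted p under 0.05. On the left 29 genes are filled to the right of 0 and 5 to the left of it, and on the right none is filled; Psma8 in both panels and Psmb9 on the left were not tested.

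All 7 tested alpha subunits of the 20S core rose in TKO cells, with log2 fold changes between 0.24 and 0.90 and a median of 0.49. Of all tested genes 23.2% rose. Psma7 had a signal of 99.5, 105 and 97.5 in TKO libraries, against 52.9, 53.5 and 54.1 in WT libraries. Its TKO and WT libraries did not overlap, and it rose by 0.90 ± 0.06 on the log2 scale (SE, adjusted p = 0.000247). Psma5 had a signal of 67.6, 74.1 and 69.5 in TKO libraries, against 44.4, 37.1 and 38.2 in WT libraries, again without overlap. It rose by 0.81 ± 0.09 (adjusted p = 0.000780), although 54.4% of its 50-base stretches also occur in annotated pseudogenes, so its reads may be split. Psma2, 1 of the genes with a seed match, had a signal of 125, 124 and 118 in TKO libraries, against 81.9, 74.2 and 76.8 in WT libraries. Its groups were apart as well, and it rose by 0.65 ± 0.06 (adjusted p = 0.000578). The other alpha subunits, Psma3, Psma4, Psma1 and Psma6, rose by 0.49, 0.46, 0.27 and 0.24. Psma3 is the other alpha subunit with a seed match. The calls of Psma1 and Psma6 depended on single libraries. Psma1 was no longer called without TKO replicate 3, WT replicate 2 or WT replicate 3 (adjusted p = 0.0521, 0.0998 and 0.0584). Psma6 was not called without any 1 of the TKO libraries or without WT replicate 2 or 3 (adjusted p between 0.0505 and 0.135). Psma8, the alpha subunit known from the testis, was below the filter, with a signal of 0.521, 0.202 and 0.288 in TKO libraries, against 0.371, 0.150 and 0.272 in WT libraries.

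Of the 6 beta subunits of the constitutive core, 5 rose and Psmb2 fell (23.2% and 22.7% of all tested genes). Psmb4, which forms part of the ring without a catalytic site, had a signal of 112, 122 and 107 in TKO libraries, against 39.5, 40.9 and 42.9 in WT libraries. Among the core subunits it had the highest estimate, 1.44 ± 0.07 (adjusted p = 0.000155), and its means were 114 ± 8.0 in TKO cells and 41.1 ± 1.7 in WT cells (SD, n = 3 each). Psmb3, also without a catalytic site, had a signal of 60.2, 65.6 and 58.9 in TKO libraries, against 29.7, 29.996 and 30.7 in WT libraries. It rose by 1.01 ± 0.06 (adjusted p = 0.000252), and 55.8% of its 50-base stretches are shared with annotated copies elsewhere. Of the catalytic subunits, Psmb7, with trypsin-like activity, had a signal of 85.1, 88.4 and 85.6 in TKO libraries, against 52.1, 52.03 and 50.7 in WT libraries. It rose by 0.73 ± 0.05 (adjusted p = 0.000289) without overlap of the groups. Psmb6, with caspase-like activity, had a signal of 72.2, 79.01 and 71.6 in TKO libraries, against 51.9, 54.7 and 54.5 in WT libraries. It rose by 0.46 ± 0.06 (adjusted p = 0.00198), and this call was lost in the fit that removed the trend of change with transcript length and GC content (0.08, adjusted p = 0.208). Psmb1 rose by 0.49 ± 0.07 (adjusted p = 0.00166). Psmb2, another subunit without a catalytic site, had a signal of 88.2, 89.2 and 83.8 in TKO libraries, against 106, 107 and 106 in WT libraries. All its TKO libraries lay below all its WT libraries, and it fell, with a log2 fold change of -0.28 ± 0.05 (adjusted p = 0.00643), but not with scaling by library size alone (-0.16, adjusted p = 0.0692).

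**Figure D2:**
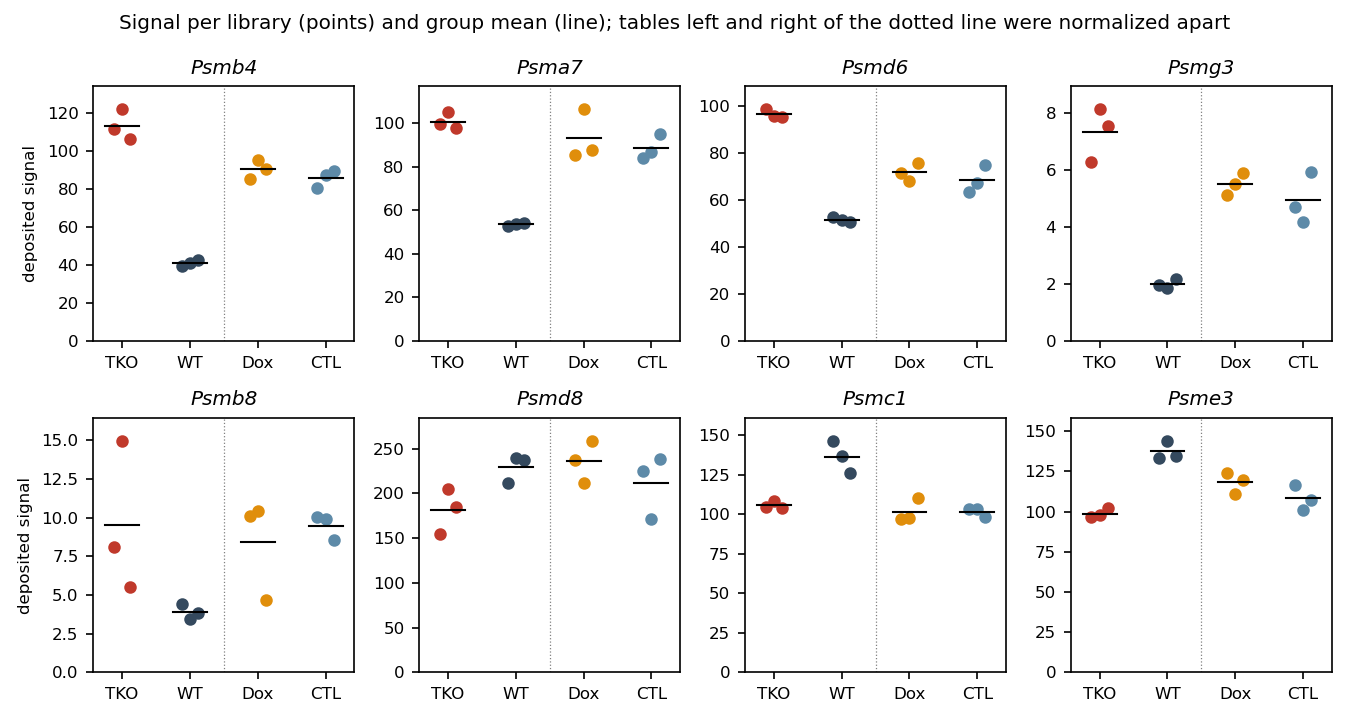
Deposited signal of 8 proteasome genes in each library (points) with the group mean (line), for TKO, WT, Dox and CTL from left to right; the tables on each side of the dotted line were normalized apart. Psmb4, Psma7, Psmd6 and Psmg3 are higher and Psmd8, Psmc1 and Psme3 lower in every TKO library than in every WT library, while Psmb8 spreads between 5.55 and 14.98 in TKO cells.

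The immunoproteasome subunits were scarce in these cells and variable between TKO libraries. Psmb8 had a signal of 8.14, 14.98 and 5.55 in TKO libraries, against 4.45, 3.47 and 3.85 in WT libraries. It rose by 1.01 ± 0.31 (adjusted p = 0.0351), and TKO replicate 2, the highest, was also the library with the highest macrophage and leukocyte marker sum (326, against 57.5 and 65.2 in the other TKO libraries). Without TKO replicate 1, or without any 1 of the WT libraries, the Psmb8 call was lost (adjusted p between 0.0592 and 0.109), and its estimate was 0.66 without TKO replicate 2 (adjusted p = 0.0250). Once the trend with length and GC was taken out it was 0.74 and not called (adjusted p = 0.0642). Psmb10 had a signal of 10.2, 13.3 and 10.8 in TKO libraries, against 7.55, 7.42 and 8.79 in WT libraries. It rose by 0.47 ± 0.12 (adjusted p = 0.0185), but not without WT replicate 1 or 2 (adjusted p = 0.0666 and 0.0745), nor once the trend with length and GC was taken out (0.15, adjusted p = 0.182). Psmb9 had a signal of 1.02, 1.65 and 0.499 in TKO libraries, against 0.406, 0.400 and 0.381 in WT libraries, below the filter, and was therefore not tested; the authors' deposited table gives it a log2 fold change of 1.41 with a false discovery rate of 0.0457. Its gene lies beside Tap1 and their exons overlap on opposite strands. Set against its constitutive counterpart per kilobase of transcript, Psmb10 stood at 10.6%, 13.3% and 11.1% of Psmb7 in TKO libraries and at 12.8%, 12.6% and 15.4% in WT libraries, so the groups overlapped. Psmb9 stood at 0.831%, 1.24% and 0.412% of Psmb6 in TKO libraries and at 0.462%, 0.431% and 0.413% in WT libraries.

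Of the 5 tested 19S ATPases 2 rose and 1 fell (23.2% and 22.7% of all tested genes), and the median log2 fold change was 0.15. Psmc1 had a signal of 104, 109 and 104 in TKO libraries, against 147, 137 and 126 in WT libraries. Its TKO libraries were all lower, and it fell, with a log2 fold change of -0.36 ± 0.07 (adjusted p = 0.00676), in every one of the 18 fits. Psmc4 had a signal of 95.5, 100.3 and 99.6 in TKO libraries, against 82.5, 80.6 and 77.8 in WT libraries. It rose by 0.29 ± 0.06 (adjusted p = 0.00656), but in the fit without the trend of change with length and GC its change was 0.05 (adjusted p = 0.508). Psmc2 had a signal of 112, 117 and 113 in TKO libraries, against 104, 99.2 and 95.01 in WT libraries. It rose by 0.20 ± 0.06 (adjusted p = 0.0328), and the call was lost without TKO replicate 2 or 3 or WT replicate 2 or 3 (adjusted p between 0.0588 and 0.114). Psmc3 and Psmc5 did not pass, with log2 fold changes of 0.14 and 0.15. Once that trend was taken out, 0 of the 5 ATPases rose and Psmc1 fell (24.4% and 21.9% of all tested genes), and the median was -0.06.

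Among the 11 non-ATPase subunits of the 19S regulator, 6 rose and 2 fell (23.2% and 22.7% of all tested genes). Their median log2 fold change was 0.21. Psmd6, a lid subunit, had a signal of 98.5, 95.5 and 95.2 in TKO libraries, against 52.5, 51.6 and 50.4 in WT libraries. The groups were far apart, and it rose by 0.89 ± 0.05 (adjusted p = 0.000221). Psmd13, another lid subunit, had a signal of 87.7, 96.8 and 91.2 in TKO libraries, against 59.8, 57.9 and 55.9 in WT libraries, and its exons overlap those of Sirt3 on the opposite strand. It rose by 0.66 ± 0.06 (adjusted p = 0.000585). Psmd2, the large base subunit that docks ubiquitin shuttle factors, had a signal of 301, 301 and 314 in TKO libraries, against 211, 201 and 200.4 in WT libraries. It rose by 0.58 ± 0.06 (adjusted p = 0.000635). Psmd4, a ubiquitin receptor, Psmd14, the deubiquitinase of the lid, and Psmd1, the other large base subunit, rose by 0.49, 0.28 and 0.21. The Psmd1 call was lost without TKO replicate 1 or 3 or any 1 of the WT libraries (adjusted p between 0.0567 and 0.116). Psmd8, a lid subunit, had a signal of 154, 205 and 185 in TKO libraries, against 211, 239.7 and 237 in WT libraries. TKO replicate 2 came close to WT replicate 1 without overlap, and Psmd8 fell, with a log2 fold change of -0.34 ± 0.12 (adjusted p = 0.0486). This call was lost without any 1 library other than TKO replicate 2 (adjusted p between 0.0664 and 0.149), with library-size scaling (-0.22, adjusted p = 0.223) and with edgeR (-0.32, adjusted p = 0.0638). Psmd11, also of the lid, had a signal of 90.1, 88.8 and 87.8 in TKO libraries, against 103, 102 and 105 in WT libraries. It fell, with a log2 fold change of -0.21 ± 0.05 (adjusted p = 0.0151), but not without WT replicate 2 or 3 (adjusted p = 0.0597 and 0.0614), nor with scaling by library size alone (-0.09, adjusted p = 0.239). Psmd3, Psmd7 and Psmd12 did not pass, with log2 fold changes of 0.19, -0.01 and 0.13.

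The assembly factors rose in 6 of 7 cases and fell in none (23.2% and 22.7% of all tested genes), with a median of 0.33. Psmg3 and Psmg4, which form a chaperone pair for the alpha ring, had the highest estimates of this group. Psmg3 had a signal of 6.27, 8.13 and 7.54 in TKO libraries, against 1.96, 1.87 and 2.16 in WT libraries, in means 7.31 ± 0.95 in TKO cells and 2.00 ± 0.15 in WT cells (SD, n = 3 each). It rose by 1.47 ± 0.12 (adjusted p = 0.000323), and 22.7% of its 50-base stretches are shared with Gm26938, which overlaps it on the same strand. Psmg4 had a signal of 4.78, 5.04 and 4.36 in TKO libraries, against 1.27, 1.58 and 1.83 in WT libraries. It rose by 1.16 ± 0.12 (adjusted p = 0.000684), and because 1 is added to signals this low, both estimates understate the change. The ratio of means was 3.66 for Psmg3 and 3.02 for Psmg4. The other chaperone pair of the alpha ring had lower estimates, and the difference between its members was not tested. Psmg2 had a signal of 17.7, 19.5 and 18.4 in TKO libraries, against 15.1, 15.3 and 14.4 in WT libraries. It rose by 0.29 ± 0.07 (adjusted p = 0.0160), but not without WT replicate 2 or 3 (adjusted p = 0.0537 and 0.0614). Its partner Psmg1 had a signal of 16.4, 18.1 and 17.9 in TKO libraries, against 15.1, 15.1 and 16.3 in WT libraries and did not pass (0.16 ± 0.07, adjusted p = 0.120).

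The remaining assembly factors, Psmd5, Psmd9 and Psmd10, are chaperones of the 19S base and leave the finished particle. Psmd9 had a signal of 30.4, 29.6 and 27.5 in TKO libraries, against 18.3, 20.9 and 22.3 in WT libraries. It rose by 0.49 ± 0.09 (adjusted p = 0.00537). Psmd5, which holds the third seed match, had a signal of 55.8, 59.7 and 61.3 in TKO libraries, against 47.4, 45.6 and 47.2 in WT libraries. It rose by 0.33 ± 0.06 (adjusted p = 0.00593), with no overlap between groups. Psmd10 had a signal of 21.2, 23.1 and 21.7 in TKO libraries, against 19.7, 17.1 and 17.0 in WT libraries. It rose by 0.29 ± 0.08 (adjusted p = 0.0298), but not without TKO replicate 2 or 3 or WT replicate 2 or 3 (adjusted p between 0.0568 and 0.114).

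Activators other than the 19S particle went in opposite directions. Psme2, a subunit of the interferon-inducible activator PA28 alpha/beta, had a signal of 37.5, 41.1 and 34.8 in TKO libraries, against 21.99, 18.4 and 19.5 in WT libraries. It rose by 0.89 ± 0.10 (adjusted p = 0.000806), and 59.3% of its 50-base stretches are shared with copies that include Psme2b, so its reads may be split. Psme3, which forms the nuclear activator PA28 gamma, had a signal of 96.5, 97.6 and 102 in TKO libraries, against 134, 144 and 135 in WT libraries. Every TKO library lay below every WT library, and it fell, with a log2 fold change of -0.47 ± 0.06 (adjusted p = 0.00145), in all 18 fits. Psme4, the activator PA200, had a signal of 145, 132 and 157 in TKO libraries, against 154, 142 and 147 in WT libraries and did not pass (-0.03 ± 0.08, adjusted p = 0.776). It rose, by 0.23, in the fit without that length and GC trend (adjusted p = 0.00994). Psmf1, an inhibitor of the core, had a signal of 31.4, 30.8 and 29.6 in TKO libraries, against 28.8, 28.05 and 29.8 in WT libraries and did not pass (0.08 ± 0.06, adjusted p = 0.320).

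Summed over subunits, the signal of the core and that of the regulator were both higher in TKO than in WT libraries, by unlike ratios. The 13 constitutive 20S genes summed to 1265, 1335 and 1237 in TKO libraries and to 904, 858 and 875 in WT libraries, a ratio of means of 1.45. The 16 genes of the 19S regulator summed to 1992, 2071 and 2034 in TKO libraries and to 1820.1, 1805 and 1762 in WT libraries, a ratio of means of 1.13. The 20S sum divided by the 19S sum lay between 0.608 and 0.645 in TKO libraries and between 0.476 and 0.497 in WT libraries, with no overlap. In the other table the same ratio lay between 0.561 and 0.578 in Dox libraries and between 0.588 and 0.614 in CTL libraries, lower in every Dox library. These sums are descriptions over subunits that differ in transcript length, and Psmb5 and Psmc6 are not in them.

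**Figure D3:**
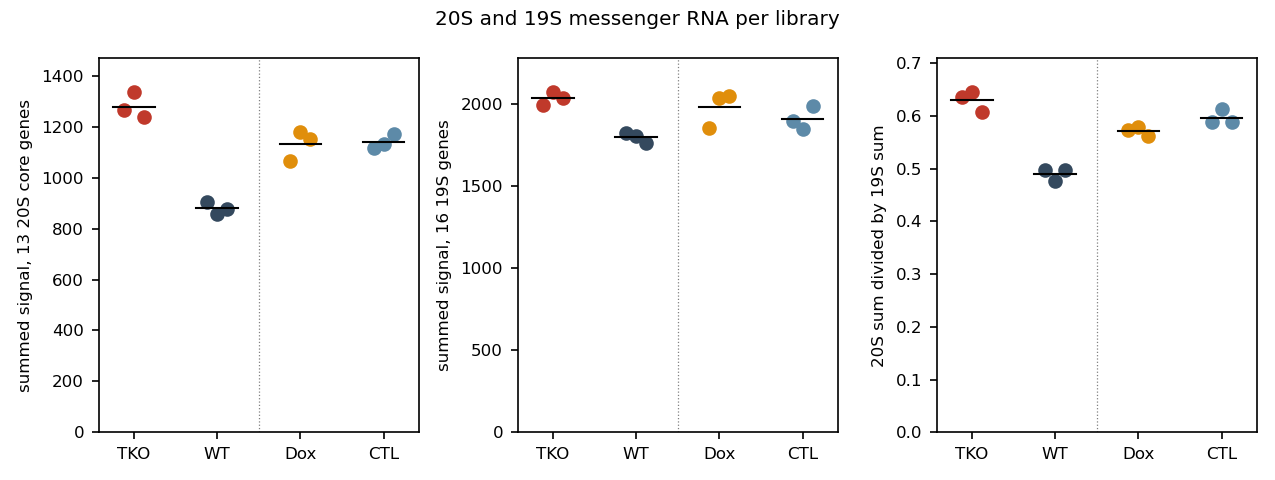
Summed deposited signal of 13 constitutive 20S genes (left), of 16 genes of the 19S regulator (middle) and their ratio (right) in each library, with the group mean as a line; the tables on each side of the dotted line were normalized apart. The ratio lies between 0.608 and 0.645 in TKO cells and between 0.476 and 0.497 in WT cells.

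Per kilobase of transcript, the subunits of the particle lay closer together in TKO than in WT cells. The median signal per kilobase over the 29 constitutive 20S and 19S genes was 71.6 in TKO cells and 49.1 in WT cells, and the SD of its log2 between genes was 0.43 in TKO cells and 0.57 in WT cells. Among the core and regulator groups the difference in spread was widest for the 6 beta subunits, with an SD of 0.24 in TKO cells and 0.67 in WT cells. In TKO cells Psmb2 stood at 101 per kilobase and Psmb4 at 96.0, and in WT cells Psmb2 stood at 124 and Psmb4 at 34.7. The ATPases were the most even group in both, between 63.8 and 72.2 in TKO cells and between 55.6 and 85.8 in WT cells. Assembly factors lay lower, with a median of 13.4 in TKO cells and 10.6 in WT cells, and the immunoproteasome subunits between 0.782 and 8.71 in TKO cells and between 0.293 and 6.04 in WT cells. In the transgenic cells the SD over the 29 genes was 0.48 in Dox cells and 0.48 in CTL cells. These levels use the length of 1 transcript per gene, without removal of the trend of change with length and GC content. The difference in spread was not tested.

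**Figure D4:**
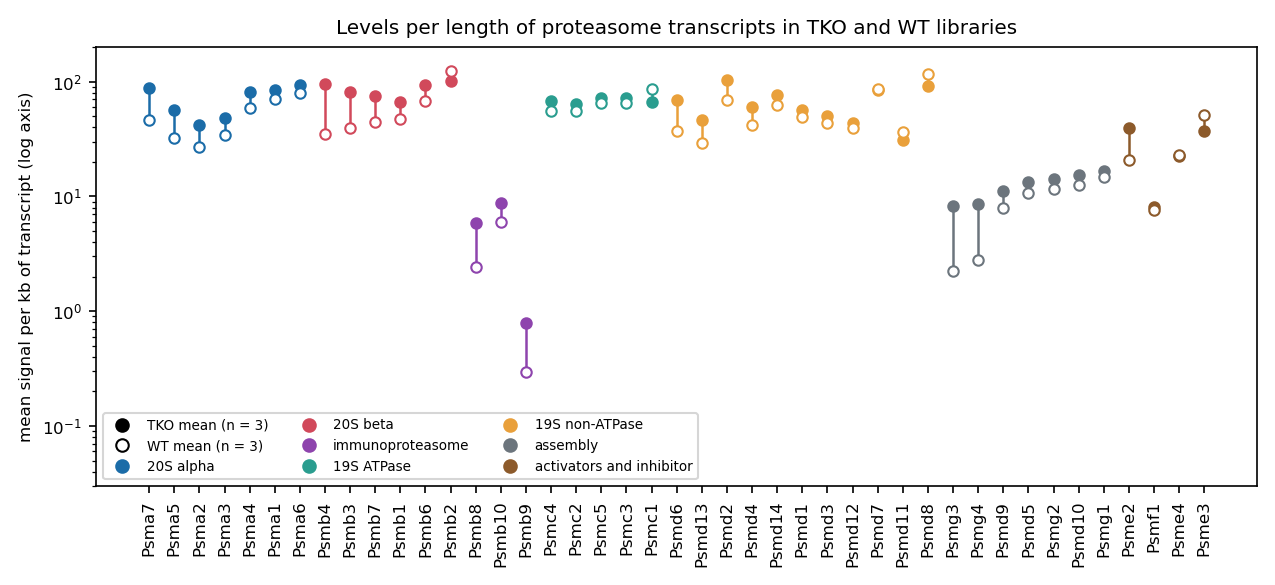
Mean signal per kilobase of transcript (log axis) of 43 proteasome genes in TKO cells (filled) and WT cells (open), n = 3 libraries each, coloured by role and joined by a line. The beta subunits span 66.7 to 101 in TKO cells and 34.7 to 124 in WT cells.

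Change between TKO and WT cells ran with transcript length and base composition across the whole table. Over all 12635 annotated tested genes, Spearman's rho of the log2 fold change was -0.32 with transcript length and 0.31 with GC content, across genes, which are not independent replicates. Splines in both accounted for 15.7% of the variance, against 1.94% for Dox against CTL. Over the 42 proteasome genes rho was -0.38 with length and 0.25 with GC content. Their median transcript was 1561 bases long and that of all tested genes 3154 bases, while the median GC content was 49.7% over the proteasome genes and 49.9% over all genes. With this trend removed from the fold changes, 22 proteasome genes rose and 5 fell, with a median of 0.25, where 24.4% of all genes rose and 21.9% fell. Of the 29 genes that rose in the first place 21 still did, and the 5 that fell did so again. The calls of Psma1, Psma6, Psmb6, Psmb8, Psmb10, Psmc2, Psmc4 and Psmg2 were lost (adjusted p between 0.0642 and 0.508). By role, 5 of 7 alpha subunits, 4 of 6 beta subunits, 6 of 11 non-ATPase subunits and 5 of 7 assembly factors rose in this fit, and 0 of 2 immunoproteasome subunits.

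**Figure D5:**
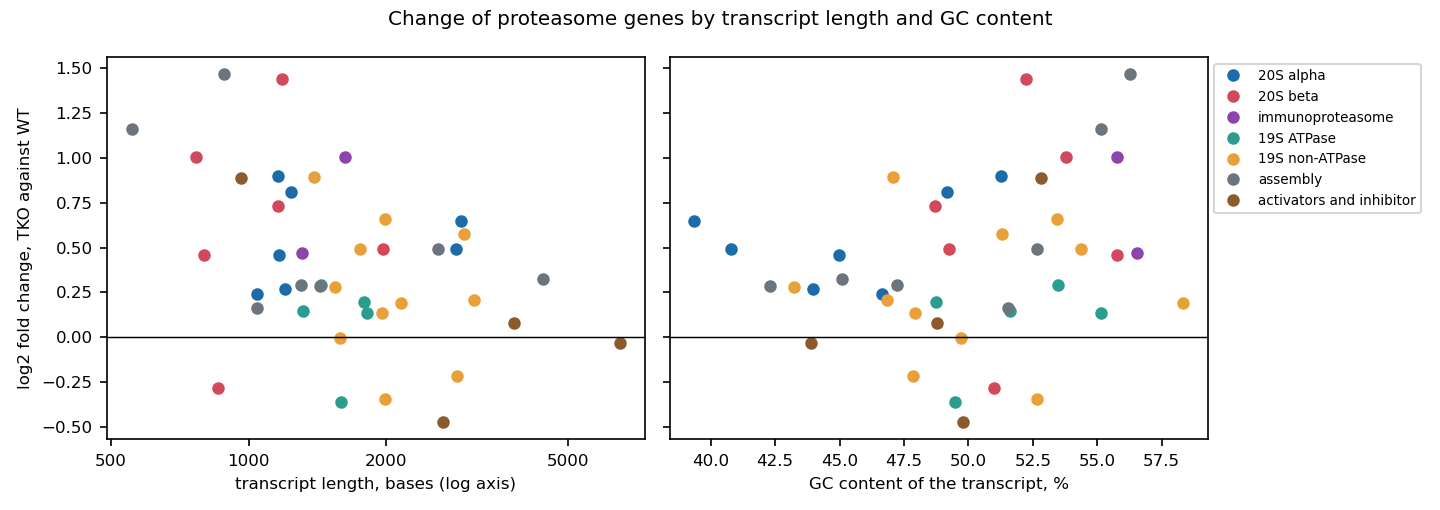
Log2 fold change of TKO against WT for the 42 tested proteasome genes against transcript length (left, log axis) and GC content (right), coloured by role. Of the 5 shortest transcripts, Psmg4, Psmb3, Psmb6 and Psmg3 lie above 0 and Psmb2 below it, and the longest transcript, Psme4, has a log2 fold change of -0.03.

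Reads from near-identical copies could touch genes whose 50-base stretches also occur in another annotated transcript. In 7 genes over 20% of the stretches did (Psma3, Psma4, Psma5, Psmb3, Psmd2, Psme2 and Psmg3). With these 7 left out, 22 of the other 35 tested genes rose and 5 fell, and the median was 0.28. Among all tested genes 23.2% rose and 22.7% fell. The highest shares below the cutoff were those of Psmc1 (0.1757 of its stretches) and Psmd11 (0.1404), which both fell. Exons of Psma4, Psma5, Psmb7, Psmb8, Psmb9, Psmc3, Psmd1, Psmd3, Psmd9 and Psmd13 overlap those of a gene on the opposite strand, and since the strand setting of the counting is not given, reads of such pairs cannot be told apart.

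Promoter sequences from RefSeq (GRCm38.p6, 250 bases before to 50 after the start) were matched by symbol for 35 of the 42 tested genes. The letters CCGGAAG, the core of ETS family sites and common in promoters of housekeeping genes, stood on either strand in 13 of the 35 (37.1%), in 19.96% of the promoters of all tested genes and in 9.93% of all promoters in the table. Of the 13 genes with it 7 rose and 3 fell, and of the 22 without it 19 rose and 1 fell. Among all tested genes 23.2% rose and 22.7% fell, and the difference between genes with and without these letters was not tested. TGACTCAGC, an antioxidant response element of the kind that NRF1 and NRF2 bind, was in 0 of the 35, against 0.47% of all tested genes, and its looser form TGACNNNGC, which includes it, was in 4 (11.4%, against 16.8%). CCAAT was in 12 (34.3%, against 43.2%), TTCNNNGAA in 3 (8.57%, against 8.24%) and GGCGGAAG in 2 (5.71%, against 6.25%). The core of the interferon response element was in 4 (11.4%, against 3.69%), namely Psmb3, Psmd4, Psmd9 and Psmg4. All 4 rose, and of the 31 genes without it 22 rose and 4 fell, a difference that was not tested. Psmb8, Psmb10 and Psme2 were among the 35 and did not hold it. TACTTGAA, the DNA letters of the 8-base miR-26 match, was in 0 of the 35. A promoter with the ETS letters is shown for 2 genes that rose, chosen after their values were seen, Psmd6 (chr14:14120896-14121195, minus strand) and Psmg3 (chr5:139826845-139827144, minus strand), and for 2 that fell in all fits, Psme3 (chr11:101315963-101316262, plus strand) and Psmc1 (chr12:100109952-100110251, plus strand). Capitals mark CCGGAAG or its reverse complement, each shown 5′ to 3′ on the strand of the gene.
Psmd6: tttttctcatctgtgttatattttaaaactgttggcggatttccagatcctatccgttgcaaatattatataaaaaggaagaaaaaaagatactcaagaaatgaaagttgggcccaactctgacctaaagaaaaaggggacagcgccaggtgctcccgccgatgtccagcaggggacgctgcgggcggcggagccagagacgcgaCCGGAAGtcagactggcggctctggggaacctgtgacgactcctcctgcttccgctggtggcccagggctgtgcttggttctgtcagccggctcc
Psmg3: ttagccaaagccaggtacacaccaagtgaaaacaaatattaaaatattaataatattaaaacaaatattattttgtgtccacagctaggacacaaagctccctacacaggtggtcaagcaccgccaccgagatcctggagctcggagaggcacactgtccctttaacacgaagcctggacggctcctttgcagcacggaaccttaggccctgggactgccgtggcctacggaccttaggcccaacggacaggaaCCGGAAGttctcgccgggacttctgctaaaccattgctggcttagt
Psme3: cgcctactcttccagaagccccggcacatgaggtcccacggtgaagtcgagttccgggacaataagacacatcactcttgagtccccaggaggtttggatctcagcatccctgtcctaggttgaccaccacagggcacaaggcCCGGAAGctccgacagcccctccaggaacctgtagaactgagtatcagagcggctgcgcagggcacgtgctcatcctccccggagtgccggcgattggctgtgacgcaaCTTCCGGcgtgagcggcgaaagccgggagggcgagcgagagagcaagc
Psmc1: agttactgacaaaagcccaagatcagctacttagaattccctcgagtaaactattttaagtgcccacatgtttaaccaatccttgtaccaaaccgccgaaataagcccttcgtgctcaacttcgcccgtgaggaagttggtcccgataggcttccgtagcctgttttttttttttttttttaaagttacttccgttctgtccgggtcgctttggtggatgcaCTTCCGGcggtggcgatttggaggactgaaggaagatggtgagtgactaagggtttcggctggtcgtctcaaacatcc
Genes with the same letters around their start thus include Psme3, which fell, with 2 copies, and Psmg3, which rose, with 1 copy.

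Of 17 tested genes that work with the proteasome but carry other names (assembly factors, deubiquitinases, ubiquitin receptors and shuttles) 4 rose and 4 fell in TKO cells, shares near those of all tested genes (23.2% and 22.7%), and the median was -0.06. Pomp, the maturation chaperone of the core, had a signal of 72.8, 72.5 and 64.04 in TKO libraries, against 49.001, 49.6 and 42.7 in WT libraries, a log2 fold change of 0.56 ± 0.09 (adjusted p = 0.00291). Rad23b, a shuttle for ubiquitin conjugates, had a signal of 246, 251 and 264 in TKO libraries, against 497, 489 and 448 in WT libraries, a log2 fold change of -0.91 ± 0.07 (adjusted p = 0.000311). Ubqln1, another shuttle, had a signal of 132, 129.7 and 138 in TKO libraries, against 181, 182 and 173 in WT libraries, a log2 fold change of -0.42 ± 0.06 (adjusted p = 0.00171). Both shuttles were thus lower in TKO cells, where their docking subunit Psmd2 was higher.

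The pathway of NRF1 (Nfe2l1), the transcription factor that raises proteasome genes when proteasome activity is short, had 4 of 12 tested genes higher and 1 lower, with a median of 0.08, against 23.2% and 22.7% of all tested genes. With library-size scaling the count was 7 higher and 1 lower (30.2% and 15.1% of all genes). Vcp, the ATPase that extracts proteins for degradation and NRF1 from the membrane, had a signal of 419, 390.4 and 393 in TKO libraries, against 221, 209.7 and 218 in WT libraries, a log2 fold change of 0.89 ± 0.06 (adjusted p = 0.000271). Nfe2l2, which encodes the related factor NRF2, had a signal of 179, 164 and 159 in TKO libraries, against 298, 301 and 269 in WT libraries, a log2 fold change of -0.79 ± 0.08 (adjusted p = 0.000601). Maff, a small Maf partner of these factors, had a signal of 42.8, 44.2 and 40.3 in TKO libraries, against 28.7, 30.3 and 29.6 in WT libraries, a log2 fold change of 0.51 ± 0.06 (adjusted p = 0.00137). Nfe2l1 itself, named after its values were seen, had a signal of 443, 384 and 412 in TKO libraries, against 446, 458 and 466 in WT libraries, a log2 fold change of -0.15 ± 0.07 (adjusted p = 0.147) and did not pass. Of 4 ubiquitin and ubiquitin-activating enzyme genes 2 rose and 0 fell (23.2% and 22.7% of all tested genes), with a median of 0.34. Rps27a, which encodes ubiquitin fused to a ribosomal protein, had a signal of 337, 376 and 349.8 in TKO libraries, against 106, 109.9 and 124 in WT libraries, a log2 fold change of 1.64 ± 0.08 (adjusted p = 0.000155). Ubb, a polyubiquitin gene, had a signal of 149.6, 151 and 125 in TKO libraries, against 85.6, 75.7 and 85.3 in WT libraries, a log2 fold change of 0.78 ± 0.10 (adjusted p = 0.00130). Both were higher in every TKO library than in every WT library.

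Antigen presentation genes, which use the peptides the proteasome makes, had 4 of 12 higher and 4 lower (23.2% and 22.7% of all tested genes), with a median of 0.42 and 8 of 12 above 0. With library-size scaling 4 rose and 1 fell, and in the fit that took out length and GC 2 rose and 2 fell. B2m, the light chain of class I molecules, had a signal of 454, 665 and 355 in TKO libraries, against 1153, 1062 and 1146 in WT libraries, a log2 fold change of -1.23 ± 0.21 (adjusted p = 0.00439). Tap2, a peptide transporter subunit, had a signal of 34.02, 32.5 and 25.6 in TKO libraries, against 20.4, 21.7 and 21.6 in WT libraries, a log2 fold change of 0.50 ± 0.11 (adjusted p = 0.0116). Erap1, a peptide-trimming enzyme, had a signal of 44.8, 44.03 and 46.3 in TKO libraries, against 62.3, 53.6 and 53.4 in WT libraries, a log2 fold change of -0.31 ± 0.08 (adjusted p = 0.0163). Erap1 was not called with library-size scaling (-0.19, adjusted p = 0.0852) or in the fit that took out length and GC (-0.04, adjusted p = 0.667). The COP9 signalosome, a complex built like the lid of the 19S regulator, had 5 of 10 genes higher and 3 lower (23.2% and 22.7% of all tested genes), with a median of 0.20. With library-size scaling 6 rose and 1 fell. Cops9 had a signal of 35.1, 32.6 and 26.9 in TKO libraries, against 9.83, 8.999 and 9.70 in WT libraries, a log2 fold change of 1.62 ± 0.11 (adjusted p = 0.000260). Cops5, its catalytic subunit, had a signal of 81.4, 81.6 and 81.4 in TKO libraries, against 52.2, 46.6 and 50.7 in WT libraries, a log2 fold change of 0.70 ± 0.06 (adjusted p = 0.000482). Cops6, the partner of that subunit, had a signal of 81.5, 83.6 and 79.4 in TKO libraries, against 55.8, 55.6 and 54.6 in WT libraries, a log2 fold change of 0.55 ± 0.05 (adjusted p = 0.000611).

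Between doxycycline-treated and untreated transgenic cells no proteasome gene differed past the threshold. Of 43 tested genes 0 passed, with 0% of all 12634 tested genes called by limma and 5.92% of them at an unadjusted p under 0.05, and the edgeR test on recovered reads also called 0 of all genes. The median log2 fold change was 0.01 over the proteasome genes and 0.01 over all genes. At an unadjusted p under 0.05 stood 1 of the 43 genes, Psmg4, and edgeR and DESeq2 called 0 of them. With library pairs of the same number as a block, 2.1% of all genes and 0 of the proteasome genes were called. In the unpaired fit standard errors ran between 0.07 and 0.37 with a median of 0.09. A p above the threshold does not show that a gene was unaltered. Dox and CTL libraries failed to overlap for 2 of the 43 genes (4.65%), Psmg4 and Psmd10, against 12.2% of all tested genes.

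Psmg4, the alpha ring chaperone, had a signal of 6.39, 6.57 and 5.19 in Dox libraries, against 4.74, 3.46 and 3.91 in CTL libraries. All 3 Dox libraries were higher, with a log2 fold change of 0.49 ± 0.15 (adjusted p = 0.705 in the unpaired fit). With the pairs as a block its adjusted p was 0.0940. With the block and that length and GC trend taken out it was called (0.46, adjusted p = 0.0364, in a fit that called 7.75% of all genes). Psmd10, the 19S base chaperone also known as gankyrin, had a signal of 13.9, 15.9 and 14.2 in Dox libraries, against 17.3, 19.8 and 15.99 in CTL libraries. All 3 Dox libraries were lower, with a log2 fold change of -0.25 ± 0.11 (adjusted p = 0.841 in the unpaired fit and 0.213 with the block). The other assembly factors had log2 fold changes between -0.04 (Psmd9) and 0.21 (Psmg1). Psmg1 had a signal of 19.5, 22.2 and 20.7 in Dox libraries, against 19.5, 19.6 and 14.7 in CTL libraries. Psmg2 had a signal of 18.4, 15.9 and 16.5 in Dox libraries, against 17.3, 15.2 and 14.9 in CTL libraries. Psmg3 had a signal of 5.13, 5.51 and 5.88 in Dox libraries, against 4.70, 4.16 and 5.94 in CTL libraries. In none of these chaperones did the groups separate, since at least 1 Dox library lay within or at the edge of the CTL range. Psmd5 had a signal of 43.5, 44.4 and 54.9 in Dox libraries, against 44.5, 45.3 and 54.0 in CTL libraries. Psmd9 had a signal of 27.6, 29.8 and 26.4 in Dox libraries, against 28.7, 25.98 and 31.6 in CTL libraries. Both overlapped as well.

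None of the core and regulator subunits passed between Dox and CTL libraries. Psmb4 had a signal of 85.3, 95.4 and 90.6 in Dox libraries, against 80.6, 87.7 and 89.7 in CTL libraries, a log2 fold change of 0.07 ± 0.08. Psmb7 had a signal of 73.02, 76.3 and 82.9 in Dox libraries, against 78.9, 81.8 and 82.96 in CTL libraries, a log2 fold change of -0.07 ± 0.08. Psmb6 had a signal of 71.2, 81.1 and 73.3 in Dox libraries, against 78.8, 81.1 and 84.1 in CTL libraries, a log2 fold change of -0.11 ± 0.08. In each of these genes the groups overlapped. Within same-numbered pairs of libraries, Dox was higher in all 3 pairs for 9 of the 43 genes (20.9%, against 21.4% of all tested genes) and lower in all 3 for 4 (9.30%, against 18.2%). The 9 were Psma1, Psmb4, Psmc5, Psmd6, Psmd8, Psmd14, Psme3, Psmg2 and Psmg4, and the 4 were Psmb6, Psmb7, Psmd10 and Psme2. Alpha subunits had log2 fold changes between -0.04 and 0.07, beta subunits between -0.13 and 0.13, ATPases between -0.003 and 0.11 and non-ATPase subunits between -0.04 and 0.17. Of the genes that fell in TKO cells, Psmc1 had a signal of 96.9, 97.6 and 110.2 in Dox libraries, against 103, 103 and 98.5 in CTL libraries. Psme3 had a signal of 124, 111 and 119 in Dox libraries, against 117, 101 and 107 in CTL libraries, higher in Dox in every pair though the groups overlapped, and was not called with the pairs as a block (adjusted p = 0.406).

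All 3 immunoproteasome genes had estimates below 0 in Dox cells, and none passed. Psmb8 had a signal of 10.1, 10.5 and 4.71 in Dox libraries, against 10.1, 9.90 and 8.54 in CTL libraries, a log2 fold change of -0.22 ± 0.27 (adjusted p = 0.986). Psmb9 had a signal of 0.906, 2.36 and 0.241 in Dox libraries, against 1.54, 2.01 and 0.943 in CTL libraries, a log2 fold change of -0.30 ± 0.37 (adjusted p = 0.986). Psmb10 had a signal of 13.1, 15.8 and 10.9 in Dox libraries, against 17.3, 15.3 and 14.9 in CTL libraries, a log2 fold change of -0.25 ± 0.15 (adjusted p = 0.908). Dox replicate 3 was the lowest library for all 3 genes. It also had the lowest macrophage and leukocyte marker sum. These sums were 164, 90.5 and 34.1 in Dox libraries and 188, 87.4 and 44.5 in CTL libraries. Among Dox libraries all 3 genes were highest in replicate 2, but the marker sum in replicate 1. Among CTL libraries Psmb8, Psmb10 and the marker sum were highest in replicate 1, and Psmb9 in replicate 2. The part of macrophages and leukocytes in the values was not tested. Psme2 had a signal of 31.96, 26.5 and 33.5 in Dox libraries, against 34.8, 31.2 and 38.3 in CTL libraries and a log2 fold change of -0.18 ± 0.12. Psme4 had a signal of 138, 115 and 148 in Dox libraries, against 132, 140.5 and 130.3 in CTL libraries. Psmf1 had a signal of 31.96, 30.8 and 29.4 in Dox libraries, against 33.3, 31.2 and 29.1 in CTL libraries. These activators and the inhibitor overlapped between the groups.

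Of the lists of related genes, 0 genes passed in Dox against CTL without the block. With the block 2.1% of all tested genes were called. Of the 17 tested partners 1 was called, Txnl1, a thioredoxin-like protein bound to the 19S regulator. Of the 10 COP9 genes 1 was called, Cops2. Txnl1 had a signal of 75.6, 63.2 and 69.9 in Dox libraries, against 93.1, 89.6 and 94.98 in CTL libraries, a log2 fold change of -0.41 ± 0.09 (adjusted p = 0.456), and an adjusted p of 0.0337 with the block. Cops2 had a signal of 121, 106 and 125 in Dox libraries, against 165, 168 and 151 in CTL libraries, a log2 fold change of -0.46 ± 0.09 (adjusted p = 0.432), and an adjusted p of 0.0371 with the block. Both were lower in every Dox library than in every CTL library, and the 2 groups failed to overlap for 12.2% of all tested genes.

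Set side by side, and with the reservation that the tables were normalized apart, levels in the transgenic cells lay between or outside those of TKO and WT cells depending on the gene. Psmb4 averaged 114 in TKO cells, 41.1 in WT cells, 90.4 in Dox cells and 86.0 in CTL cells. Of the 29 genes that rose in TKO cells, the CTL mean was nearer to the TKO mean in 20 and nearer to the WT mean in 9. Of the 5 that fell, it was nearer to the TKO mean in 3 and nearer to the WT mean in 2. The genetic background of the cells and the scaling of the tables cannot be told apart here, and the difference between the change in TKO cells and that in Dox cells was not tested.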

How the data were processed

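Per the submitters' processing notes, reads were handled with TopHat2 2.0.12, featureCounts 1.4.6, edgeR 3.8.6 and StringTie 1.2.2 on GRCm38 (mm10); the strand setting of the counting is not given in the sources used here. Libraries were made with a stranded kit from total RNA and read as 75-base single reads, per the labels' protocols. The deposited signal is the authors' read count scaled per library, and each table, of TKO with WT and of Dox with CTL, was normalized apart. The authors' deposited log2 fold change, p-value and false discovery rate are their own and are named where printed, and their deposited score, a test statistic, was not used. Low values were whole multiples of 1 step per library, which gave recovered reads (whole within 0.1 reads for 99.9% of values or more), used for edgeR and DESeq2 as alternatives. Depth sets counting error only. The planned test for counts was replaced by limma because the columns are scaled.

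A gene was tested where its signal reached 1 in 3 or more of the 6 libraries of its table, which left 12649 and 12634 genes, as log2 of signal plus 1 with limma 3.58.1 (trend, unpaired) in R 4.3.3, with edgeR 4.0.16 and DESeq2 1.42.0 as alternatives; p-values were adjusted by Benjamini-Hochberg over all of them with a threshold of 0.05. SE is that of the log2 fold change. Scripts were tested on simulated data. Sums and figures were made in Python 3.11.15 (pandas 2.3.3, numpy 2.4.6, matplotlib 3.10.9). Transcript length, GC content and 3' UTR come from 1 GENCODE vM21 transcript per gene, protein-coding, basic and complete ones first, then the longest. The members and gene lists were chosen with earlier results of these data known. Named genes are the catalytic, immunoproteasome, assembly, activator and inhibitor genes, the 3 of each other role with the largest change, members against their role's direction, and up to 3 genes per related list with the smallest p. Same-numbered Dox and CTL libraries deviated together (correlations of 0.863, 0.584 and 0.736). Their numbers were therefore taken as pairs in the fits with a block and in the counts within pairs. The SE and p-values of Dox against CTL come from the unpaired fit unless another fit is named. Columns of Dox replicates 2 and 3 share a sequencing suffix, so their identity comes from the replicate number alone. All columns matched a sample by name. The values of 2 genes of the related lists are not reported here.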

Additional observations from a re-analysis of the deposited data

How the results depend on the processing

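For TKO against WT, the count of proteasome genes that rose stayed within 1.5 times of 29 under every alternative, and leaving out 1 library gave 21 to 26. The count that fell was 2 with library-size scaling and 3 to 5 with 1 library left out, against 5. The median log2 fold change was 0.43 with library-size scaling, 0.26 with median centring and 0.25 without the length and GC trend, with or without the replicate block, against 0.31; with 1 library left out it was 0.30 to 0.34. Psme4 turned from -0.03 to 0.23 in this last fit (adjusted p = 0.00994, and 0.0353 with the replicate block); by construction this fit shifts long transcripts upward. The replicate numbers of TKO and WT do not pair (correlations 0.449, -0.135 and -0.293); with the replicate block 24 proteasome genes rose and 4 fell, where 20.6% and 19.7% of all genes did. Of the single-gene results under all alternatives for this comparison, 621 kept their side of the threshold and their direction, 15 stayed uncalled and changed sign, 70 lost their call, 5 gained one in the same direction and 2, both of Psme4, changed sign and were called. For Dox against CTL, 0 proteasome genes were called under any alternative except the replicate block with the trend removed, which called 1, Psmg4. Over all genes 0 were called by limma or edgeR, 99 by DESeq2, 265 with the replicate block and 978 with the replicate block and the trend removed; the cause was not tested. Leaving out 1 library gave 0 calls each time. Depth limits mainly Psma8 and Psmb9, with at least 9 and 21 recovered reads per library in TKO and WT. In Dox and CTL libraries these 2 genes had as few as 3 and 6 recovered reads.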
